A study of Mus musculus with 10 samples.

Results

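Pancreas-type digestive enzymes were followed in 10 mouse gastric tumours, 5 inflamed and 5 desert, through 10 genes chosen by name from the 56748 genes of the deposited expression table. The genes were Clps, Pla2g1b, Pnlip, Cel, Prss2, Ctrb1, Cela1, Cpa1, Cpb1 and Amy2b, and each was found as 1 row. The inflamed tumours arose in the stomach of mice with the genotype Tff1-CreERT2;Apcfl/fl;Trp53fl/fl, in which a tamoxifen-inducible Cre under the trefoil factor gene Tff1 acts on floxed alleles of Apc and Trp53. The desert tumours were grown as allografts placed orthotopically, and the labels give wild type as their genotype without saying whether the host or the grafted cells are meant. What the grafted cells carry, the age of the animals and how many animals or grafts the tumours came from were not stated in what was at hand. The kind of tumour, its genotype and the way a tumour was made cannot be told apart. Bulk RNA was measured in 1 library per tumour, with 15474313 to 15975770 reads in genes per inflamed library and 14148147 to 16951640 per desert library. Levels are given as FPKM, reads scaled by gene length and library depth, so that genes of unequal length can be compared. In bulk tissue, fewer cells of a type and less RNA per cell cannot be told apart.

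The exocrine pancreas makes digestive enzymes in its acinar cells and stores many of them as inactive zymogens. Pancreatic lipase (Pnlip) splits dietary fat with the help of colipase (Clps), a small protein that anchors it to lipid droplets, while phospholipase A2 of group IB (Pla2g1b) and carboxyl ester lipase (Cel) act on phospholipids and on cholesterol esters. Trypsin (Prss2) activates the zymogens of chymotrypsin (Ctrb1) and of the carboxypeptidases (Cpa1 and Cpb1), and amylase (Amy2b) digests starch. In acinar cells these genes depend on the transcription factor Ptf1a and its partner Rbpjl. The stomach makes a zymogen of its own, pepsinogen, in chief cells.

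The 10 genes did not form 1 block in these tumours. Colipase and Pla2g1b were higher in inflamed than in desert tumours, the elastase gene Cela1 lay at about the same high level in both, and the other 7 genes were close to 0 in all 10 tumours. Of the 10 genes, 3 reached the mean of 0.5 FPKM needed for the test. Of these 3, 2 were higher in inflamed tumours and 1, Cela1, did not pass, where limma called 62.2% of all 16750 tested genes, 31% higher and 31.2% lower. Pla2g1b reached the mean of 0.5 FPKM only through the inflamed tumours, which largely fixed its direction. Most of the RNA of the 10 genes came from few of them: Clps and Pla2g1b gave 64.6%, 1.97%, 84.2%, 26.9% and 38.0% of their summed reads across inflamed tumours 1 to 5, and 0.278% to 2.71% in desert tumours. Cela1 gave 97.3% to 99.7% of those reads in desert tumours. Together the 10 genes took 0.0262% to 0.232% of all reads in inflamed tumours and 0.0215% to 0.0385% in desert tumours.

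**Figure D1:**
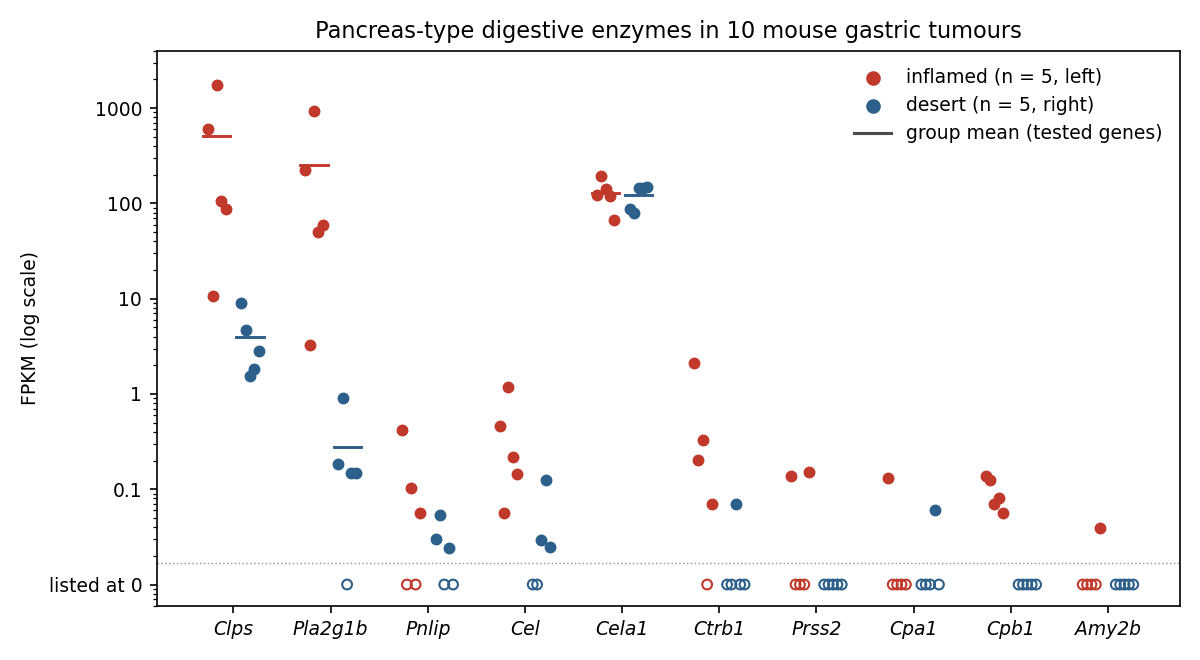
Level of the 10 enzyme genes in each tumour, in FPKM on a log axis, with 1 point per tumour (inflamed red and on the left, desert blue and on the right), open circles for genes listed at 0 and bars for the group means of the 3 tested genes. Clps lies at 10.8 to 1766 FPKM in inflamed against 1.53 to 9.07 FPKM in desert tumours, Cela1 overlaps between the groups, and 7 genes stay at or below 2.13 FPKM.

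Among the lipid-digesting genes, Clps (ENSMUSG00000024225, chromosome 17, 28777123 to 28779740 on the minus strand in the deposited table) was at 602, 10.8, 1766, 107 and 88.4 FPKM across inflamed tumours 1 to 5, against 9.07, 4.72, 1.53, 1.81 and 2.85 FPKM across desert tumours 1 to 5. The groups did not overlap, but inflamed tumour 2 lay just above desert tumour 1, and inflamed tumours 1 and 3 stood far above the rest. Its mean was 515 ± 738 FPKM in inflamed against 3.99 ± 3.10 FPKM in desert tumours (SD, n = 5 each), a 129-fold ratio of means that became 50.6-fold without inflamed tumour 3. Measured as log2(FPKM + 1), which shrinks changes of genes near 0, the difference was 5.24 (SE 1.12, 95% interval 2.78 to 7.70, limma adjusted p = 0.00182), higher in 5 of 5 inflamed tumours. Groups that do not overlap, with the inflamed one higher, were found in 24.4% of all tested genes. On recovered reads the limma voom difference of Clps was 5.57 with an adjusted p of 0.0494, within a range of 0.000157 to 0.0494 over the alternatives.

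Pla2g1b (ENSMUSG00000029522, chromosome 5, 115604321 to 115612781 on the plus strand) was at 221, 3.25, 939, 50.6 and 59.2 FPKM across inflamed tumours 1 to 5. In desert tumours 1 to 5 it was at 0.183, 0.908, 0, 0.147 and 0.148 FPKM, which rested on 0 to 11 reads per library. The highest desert tumour lay below the lowest inflamed one, which was again tumour 2. Means were 255 ± 391 FPKM in inflamed against 0.277 ± 0.360 FPKM in desert tumours (SD, n = 5 each), a 919-fold ratio of means. The ratio was 302-fold without inflamed tumour 3 and 2131-fold without desert tumour 2. The log2 difference was 5.96 (SE 1.12, 95% interval 3.49 to 8.43, limma adjusted p = 0.000811), higher in 5 of 5 inflamed tumours. The call was lost with limma voom on recovered reads, where the difference was 8.43 (SE 4.48, adjusted p = 0.121, with 3.08e-05 to 0.121 over the alternatives).

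Clps and Pla2g1b, which lie on different chromosomes, ranked the inflamed tumours in nearly the same order, with tumour 3 highest, tumour 1 next and tumour 2 lowest for both. The ratio of Clps to Pla2g1b in FPKM was 2.72, 3.32, 1.88, 2.12 and 1.49 across inflamed tumours 1 to 5, although each gene varied far more. The highest inflamed tumour exceeded the lowest 164-fold for Clps and 289-fold for Pla2g1b, against 1.27-fold for the epithelial adhesion gene Epcam and 2.83-fold for Cela1. By the SD of log2(FPKM + 1) among inflamed tumours, Pla2g1b (2.89) was place 7 and Clps (2.78) place 8 of 16750 tested genes.

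Cel (chromosome 2), which also digests lipids, was at 0.459, 0.0564, 1.20, 0.219 and 0.145 FPKM across inflamed tumours 1 to 5, against 0, 0, 0.0295, 0.125 and 0.0251 FPKM across desert tumours 1 to 5. Inflamed tumours 3 and 1 were again the highest and tumour 2 the lowest, and the groups overlapped. These values rested on 75 reads in inflamed and 7 reads in desert tumours, and without the filter on low values the difference did not pass (0.40, SE 0.17, limma adjusted p = 0.105). Pnlip (chromosome 19), the enzyme that colipase serves, had 16, 0, 4, 0 and 2 reads across inflamed tumours 1 to 5 and 1, 2, 0, 1 and 0 reads across desert tumours 1 to 5, at most 0.414 FPKM (0.11, SE 0.09, limma adjusted p = 0.347 without the filter). Clps RNA thus stood beside almost no Pnlip RNA in inflamed tumours.

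The genes next to Pnlip behaved differently. Pnliprp1 and Pnliprp2, which encode lipase-related proteins and start 47099 and 77931 bases beyond the end of Pnlip in the deposited table, were well expressed in these tumours. Pnliprp1 was at 9.32, 24.4, 5.40, 28.4 and 39.3 FPKM across inflamed tumours 1 to 5, against 142, 49.9, 216, 374 and 183 FPKM across desert tumours 1 to 5. All inflamed tumours lay below all desert tumours, as they did in 24.4% of all tested genes, and Pnliprp1 fell by 3.15 on the log2 scale (SE 0.60, 95% interval -4.46 to -1.83, limma adjusted p = 0.00084). Pnliprp2 was at 18.6, 28.0, 18.6, 68.0 and 70.7 FPKM across inflamed tumours 1 to 5, against 246, 19.7, 119, 101 and 69.9 FPKM across desert tumours 1 to 5. The groups overlapped through desert tumour 2, and the difference of -1.26 (SE 0.62, limma adjusted p = 0.0997) was not called; it was called without desert tumour 2 (-1.77, adjusted p = 0.0112) and when FPKM was converted to TPM (-1.58, adjusted p = 0.0322), and its adjusted p spanned 0.0112 to 0.221 over the alternatives. Set against the summed level of Pnlip, Pnliprp1 and Pnliprp2, Clps was 21.2, 0.206, 73.2, 1.11 and 0.803 times as high across inflamed tumours 1 to 5, and 0.0038 to 0.0678 times as high in desert tumours.

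**Figure D2:**
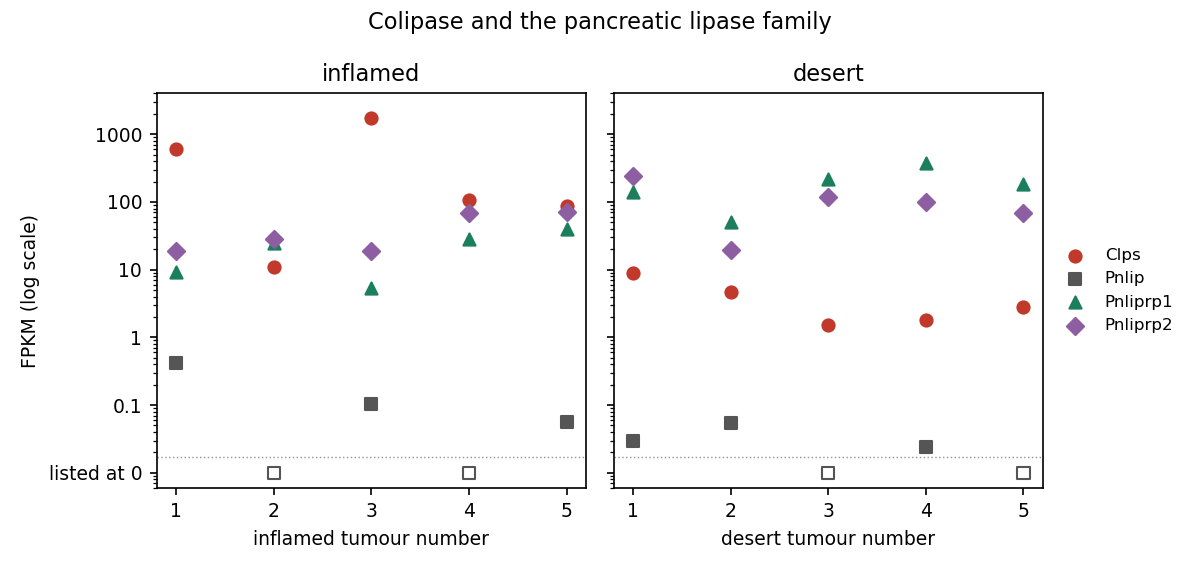
Level of Clps, Pnlip, Pnliprp1 and Pnliprp2 in FPKM on a log axis, by tumour number, with inflamed tumours in the left panel and desert tumours in the right, and open symbols for values listed at 0. Clps lies above both lipase relatives in inflamed tumours 1, 3, 4 and 5 and below both in all 5 desert tumours and in inflamed tumour 2, while Pnlip stays at or below 0.414 FPKM.

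Of the proteases, Cela1 (ENSMUSG00000023031, chromosome 15, 100572302 to 100585802 on the minus strand), a pancreatic-type elastase, was at 123, 192, 141, 119 and 67.7 FPKM across inflamed tumours 1 to 5. Across desert tumours 1 to 5 it was at 88.4, 79.8, 145, 146 and 147 FPKM. The groups overlapped over most of their range, and the lowest tumour was inflamed tumour 5. Means were 129 ± 44.7 FPKM in inflamed against 121 ± 34 FPKM in desert tumours (SD, n = 5 each), and the log2 difference of 0.06 (SE 0.28, limma adjusted p = 0.866) had a 95% interval of -0.55 to 0.67. In desert tumours Cela1 was the highest of the 10 genes by mean, followed by Clps, and in inflamed tumours it followed Clps and Pla2g1b. Those first 3 places in inflamed tumours overlapped in their values, with Cela1 above Clps in inflamed tumours 2 and 4 but not in tumours 1, 3 and 5.

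Chymotrypsinogen and trypsinogen were near the limit of detection. Ctrb1 (chromosome 8) was at 2.13, 0.203, 0.326, 0 and 0.0696 FPKM across inflamed tumours 1 to 5, which was 33, 3, 5, 0 and 1 reads, and had 1 read in all desert tumours together (0.46, SE 0.27, limma adjusted p = 0.219 without the filter). Inflamed tumour 1 stood above the others. Prss2 (chromosome 6) had 2 reads in each of inflamed tumours 1 and 5 and 0 elsewhere, where 3 reads would correspond to 0.194 to 0.242 FPKM.

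The carboxypeptidases were also low. Cpb1 (chromosome 3), which removes basic residues, was at 0.138, 0.126, 0.0697, 0.08 and 0.0558 FPKM across inflamed tumours 1 to 5, and all 5 desert tumours were listed at 0. That was 26 reads against 0, at least 8.97-fold higher when 3 reads are allowed over the desert group. Its groups did not overlap, and how often this occurs among genes below the filter was not counted. Without the filter Cpb1 was called (0.13, SE 0.02, limma adjusted p = 0.00187), where 18.1% of 34466 genes were called higher. Its desert values, all listed at 0, had no spread, which lowers the SE. Cpa1 (chromosome 6), which removes aliphatic and aromatic residues, had 4 reads in inflamed tumour 1, 2 reads in desert tumour 4 and 0 in the other 8 tumours. Amy2b (chromosome 3) had 1 read, in inflamed tumour 5; 3 reads would correspond to 0.1 to 0.125 FPKM. The deposited table classes this Amy2b row as an unprocessed pseudogene, whereas RefSeq lists a gene of that symbol as protein coding.

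How far a low value can be trusted differs between these genes. Of the 50-base stretches in GENCODE M21 transcripts, 59.8% of those of Amy2b and 92.2% of those of Prss2 occurred in no transcript of another gene, and 39.1% of those of Amy2b were shared with Amy2a5. For the other 8 genes the share was 100%. How the authors' counting treated reads that match several genes is not known, so the values of Amy2b and, to a lesser degree, Prss2 are uncertain. In all, the 7 genes below the filter had 80, 12, 57, 11 and 14 reads across inflamed tumours 1 to 5 and 1, 2, 2, 8 and 1 reads across desert tumours 1 to 5. Clps alone was 28.0 to 1042 times their summed FPKM in inflamed tumours.

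Promoter sequence was compared for the evenly expressed member and for the neighbours Pnlip, which was near 0, and Pnliprp1, which was well expressed. Shown are the 250 bases before the RefSeq start in GRCm38.p6, written 5′ to 3′ on the gene's strand, for Cela1 at chr15:100687921-100688170 (minus strand), Pnlip at chr19:58670115-58670364 (plus strand) and Pnliprp1 at chr19:58728637-58728886 (plus strand). Capitals mark the TATA box TATAAA, the E-box CANNTG and the TC-box TGGGAA, searched on both strands; the last 2 are the elements that the complex of Ptf1a and Rbpjl binds, and no marked stretch holds 2 kinds of element.
Cela1: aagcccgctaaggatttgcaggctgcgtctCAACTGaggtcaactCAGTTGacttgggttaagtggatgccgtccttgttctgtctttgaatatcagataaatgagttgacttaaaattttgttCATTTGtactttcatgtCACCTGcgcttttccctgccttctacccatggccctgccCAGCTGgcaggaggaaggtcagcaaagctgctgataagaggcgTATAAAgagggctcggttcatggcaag
Pnlip: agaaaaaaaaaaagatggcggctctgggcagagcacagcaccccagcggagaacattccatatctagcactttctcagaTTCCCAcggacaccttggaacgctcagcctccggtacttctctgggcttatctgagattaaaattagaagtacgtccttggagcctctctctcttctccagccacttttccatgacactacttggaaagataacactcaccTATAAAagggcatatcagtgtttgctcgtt
Pnliprp1: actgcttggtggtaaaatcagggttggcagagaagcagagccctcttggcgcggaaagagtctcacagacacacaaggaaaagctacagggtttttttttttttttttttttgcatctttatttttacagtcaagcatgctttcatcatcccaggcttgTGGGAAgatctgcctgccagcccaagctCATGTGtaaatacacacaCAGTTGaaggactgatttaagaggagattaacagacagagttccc
The Cela1 window held TATAAA 27 bases before the start and 5 E-boxes but no TGGGAA. In the Pnlip window TATAAA began 30 bases before the start, with 1 TGGGAA on the opposite strand and no E-box, and the Pnliprp1 window held 2 E-boxes, 1 TGGGAA and no TATAAA. Of the 10 genes, 9 matched the RefSeq promoter table, all but Clps. TATAAA was found in 4 of these, CANNTG in 7 and TGGGAA in 5, against 12.4%, 66.2% and 21.6% of 32851 promoter windows. The RefSeq start of Pla2g1b lies 120 bases from the nearest GENCODE M21 start, so its window is not shown. That window is among the 9 counted and held none of these elements. These matches describe letters in the windows and do not show binding.

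Other genes of the acinar programme were taken from lists by function. Of 21 further acinar enzyme genes, all in the table, 6 were tested: 2 were higher in inflamed tumours, 1 (Pnliprp1) was lower and 3 did not pass, with a median log2 difference of -0.15 against -0.01 over all tested genes. Of all 16750 tested genes, 31% were higher and 31.2% lower, and the counts of each list stand beside these shares. The 2 higher enzymes, Rnase1 and Ctrl, reached the filter only through the inflamed group. The ribonuclease gene Rnase1 was at 1.13 ± 0.626 FPKM in inflamed against 0.218 ± 0.431 FPKM in desert tumours (limma adjusted p = 0.0167). The chymotrypsin-like Ctrl, named after its values were seen, was at 0.871 ± 0.210 FPKM against 0.319 ± 0.115 FPKM (limma adjusted p = 0.00303; SD, n = 5 each). The salivary-type amylase Amy1 was at 1.03 to 3.02 FPKM in inflamed against 1.46 to 5.91 FPKM in desert tumours (limma adjusted p = 0.273). Its level is uncertain, since only 66.7% of its transcript stretches, counted as for Amy2b, occurred in no other gene. A share of 31.8% was found in Rnpc3 as well. The remaining 15 did not exceed 1.43 FPKM in any tumour, and 4 of them were listed at 0 in all 10. Those 4 zeros are uncertain, since the genes share much of their sequence with others. Of transcript stretches counted as for Amy2b, 45.1% of those of Prss1 and 33.9% of Prss3 occurred in no other gene. For Amy2a2 and Amy2a4 this share was 0%. Of the 15, Try4 (share 34.4%) and Amy2a1 (5.11%) were highest. Try4 had 15, 3, 20, 0 and 0 reads across inflamed tumours 1 to 5. Amy2a1 had 22 reads, all in inflamed tumour 3, and desert tumours had 0 for both.

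**Figure D3:**
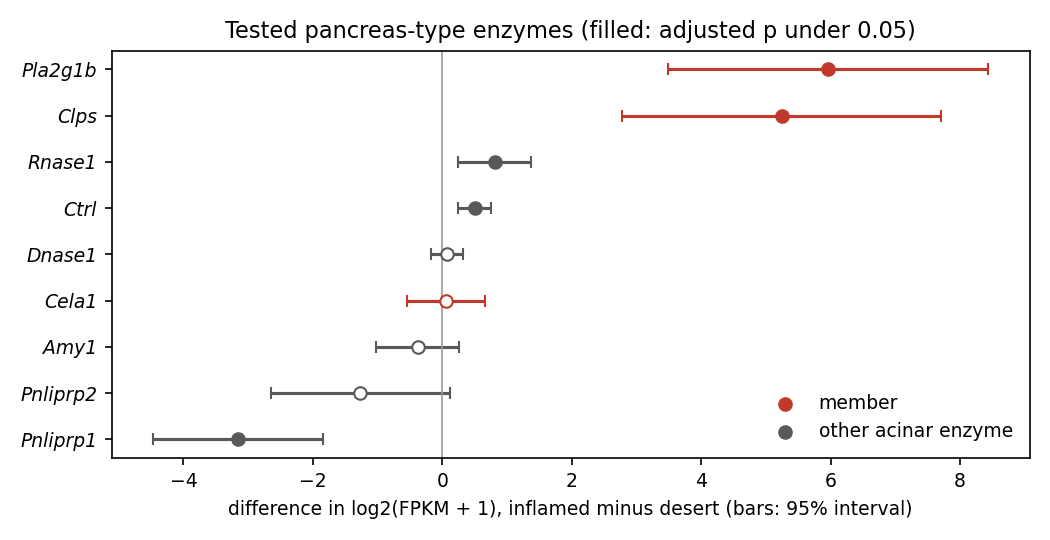
Difference in log2(FPKM + 1), inflamed minus desert, for the 3 tested members (red) and the 6 tested further acinar enzymes (grey), with 95% intervals from limma and filled points for adjusted p under 0.05. Pla2g1b (5.96) and Clps (5.24) stand to the right, Cela1 (0.06) at 0 and Pnliprp1 (-3.15) to the left.

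Secretory partners of acinar enzymes were followed in a list of 13 genes, of which 6 were tested, 5 were higher in inflamed tumours and 1 did not pass, with a median log2 difference of 2.55. Over all tested genes, 31% were higher. Reg1, Gp2, Klk1 and Pdia2 reached the filter only through the inflamed group, which largely fixed their direction. Their desert means were at most 0.178 FPKM. Reg1, a secreted lectin of acinar and gastric mucosal cells, was at 120, 162, 239, 54.4 and 142 FPKM across inflamed tumours 1 to 5, with all 5 desert tumours listed at 0 (limma adjusted p = 1.95e-08). Gp2, the major zymogen granule membrane glycoprotein, was at 1.15 to 12.8 FPKM in inflamed against listed at 0 in all desert tumours (limma adjusted p = 0.000159). The order of inflamed tumours for Reg1 and Gp2 was not that of Clps, since tumour 2 was highest for Gp2 and second for Reg1. Pdia2, like Clps, had tumour 3 highest and tumour 2 lowest. It was at 4.59, 0.414, 20.3, 6.68 and 3.05 FPKM across inflamed tumours 1 to 5. Desert tumours reached at most 0.337 FPKM (limma adjusted p = 0.00461). Tmed6 shared these extremes within a 1.69-fold range, while tumour 4 was highest for Klk1 and Zg16. Pdia2 and Zg16 were named after their values were seen. Klk1, a tissue kallikrein with close copies whose reads may be hard to separate, was at 21.6 ± 8.84 FPKM against 0.166 ± 0.115 FPKM, and Tmed6 at 10.6 ± 2.55 FPKM against 5.52 ± 2.28 FPKM (SD, n = 5 each).

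The transcription factors that define acinar cells were close to 0. Ptf1a reached at most 0.162 FPKM in inflamed tumours and was listed at 0 in desert tumours, and Rbpjl reached at most 0.309 FPKM in inflamed against 0.226 FPKM in desert tumours; both were named after their values were seen. Of 7 acinar factors, 4 were tested, of which 2 were higher and 2 did not pass, with a median log2 difference of 1.28, where 31% of all tested genes were higher. Gata4, 1 of the 2 higher, reached the filter only through the inflamed group. Gata4, a foregut endoderm factor shared with stomach, was at 44.8 ± 7.76 FPKM in inflamed against 0.313 ± 0.208 FPKM in desert tumours (limma adjusted p = 5.54e-10). Xbp1, a factor of secretory cells, was at 106 ± 7.95 FPKM against 88.8 ± 28.8 FPKM (limma adjusted p = 0.161), and Bhlha15 (Mist1), which shapes zymogen-secreting cells of pancreas and stomach, at 2.99 ± 0.690 FPKM against 2.10 ± 2.27 FPKM (limma adjusted p = 0.189; SD, n = 5 each).

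The insulin genes Ins1 and Ins2 were listed at 0 in all 10 tumours, and the 10 islet markers summed to 0.806 to 2.51 FPKM in inflamed against 0.883 to 3.58 FPKM in desert tumours. Only Nkx6-1, a beta cell factor, was tested, and it was lower in inflamed tumours (limma adjusted p = 0.0137). It was at 0.315 ± 0.398 FPKM in inflamed against 1.47 ± 1.0 FPKM in desert tumours (SD, n = 5 each). Nkx6-1 reached the filter only through the desert group, which largely fixed its direction. Of all tested genes, 31.2% were lower. Below the filter, the islet hormone gene Ppy spanned 0.227 to 1.90 FPKM in inflamed tumours, with all desert tumours listed at 0, and Mafa at 0.0415 to 0.168 FPKM against 0.289 to 0.833 FPKM. Pcsk2, a prohormone convertase, spanned 0.116 to 0.521 FPKM in inflamed tumours, with at most 0.0133 FPKM in desert tumours. Of 5 duct markers 3 were higher, 1 was lower and 1 did not pass (median log2 difference 2.12), where 31% of all tested genes were higher and 31.2% lower. They summed to 61.1 to 96.9 FPKM in inflamed against 23.7 to 31.2 FPKM in desert tumours. Cftr, a chloride channel, was at 41.8 ± 11.6 FPKM in inflamed against 1.42 ± 0.769 FPKM in desert tumours (SD, n = 5 each). Pdx1, which marks pancreas and gastric antrum alike, was at 9.44 to 22.7 FPKM in inflamed against 0.151 to 1.30 FPKM in desert tumours. Of 5 salivary markers, 4 were listed at 0 throughout. The part of such cells in the levels of Clps and Pla2g1b was not tested.

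Gastric chief cell genes moved with Clps and Pla2g1b in part. Of 7 chief cell markers, 6 were tested, 5 were higher in inflamed tumours and 1 did not pass (median log2 difference 3.98), and the summed level was 1085 to 8073 FPKM in inflamed against 11.7 to 35.9 FPKM in desert tumours. Over all tested genes, 31% were higher and 31.2% lower. Pgc, Pga5, Cblif and Chia1 reached the filter only through the inflamed group, which largely fixed their direction. Their desert means were at most 0.312 FPKM. Chia1, the acidic chitinase of chief cells, was at 177, 0.156, 774, 2.49 and 16.8 FPKM across inflamed tumours 1 to 5 and at most 0.0619 FPKM in desert tumours (limma adjusted p = 0.0193). It ranked the inflamed tumours exactly as Pla2g1b did. Pepsinogen C (Pgc), at 2532, 813, 6737, 1350 and 743 FPKM across the same 5 tumours, also had its highest values in tumours 3 and 1, but with tumour 5 rather than 2 at the bottom. Intrinsic factor (Cblif) was highest in tumour 1 and spanned 79.7 to 337 FPKM, and Muc6 spanned 143 to 249 FPKM with tumour 1 lowest. The ratio of Clps to Pgc was 0.238, 0.0133, 0.262, 0.0794 and 0.119 across inflamed tumours 1 to 5, so Clps varied beyond pepsinogen. Of 5 parietal cell markers, 2 were higher, 1 was lower, 1 did not pass and 1 lay below the filter. The 2 higher ones, Atp4b and Kcne2, also reached the filter only through the inflamed group. The proton pump genes Atp4a and Atp4b were led by inflamed tumours 3 and 4. Atp4a was at 4.70 to 126 FPKM in inflamed against 2.29 to 17.1 FPKM in desert tumours (limma adjusted p = 0.0956), while the water channel gene Aqp4 was lower, at 0.532 ± 0.342 FPKM against 9.71 ± 4.97 FPKM (limma adjusted p = 3.15e-05; SD, n = 5 each). Atp4b was at 0.197 FPKM in inflamed tumour 2 and 15.5 to 104 FPKM in the other inflamed tumours, against 0.039 to 0.454 FPKM in desert tumours (limma adjusted p = 0.00413). Of 10 intestinal absorptive and Paneth cell markers, 6 were tested and all 6 were higher in inflamed tumours (median log2 difference 3.95), and the 10 summed to 367 to 1438 FPKM in inflamed against 1.91 to 6.94 FPKM in desert tumours. Fabp2, Apoa1, Alpi and Itln1 reached the filter only through the inflamed group, which largely fixed their direction. Their desert means were at most 0.366 FPKM. Itln1, an intestinal lectin, was at 239, 513, 35.6, 179 and 512 FPKM across inflamed tumours 1 to 5, and Paneth cell lysozyme (Lyz1) at 130, 817, 243, 0.728 and 0.726 FPKM. Both were highest in inflamed tumour 2, where Clps and Pla2g1b were lowest, but Itln1 was about as high in tumour 5. Lyz1 was next highest in tumours 3 and 1, where Clps and Pla2g1b were highest. The part of chief, parietal or intestinal cells in the levels of Clps and Pla2g1b was not tested.

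**Figure D4:**
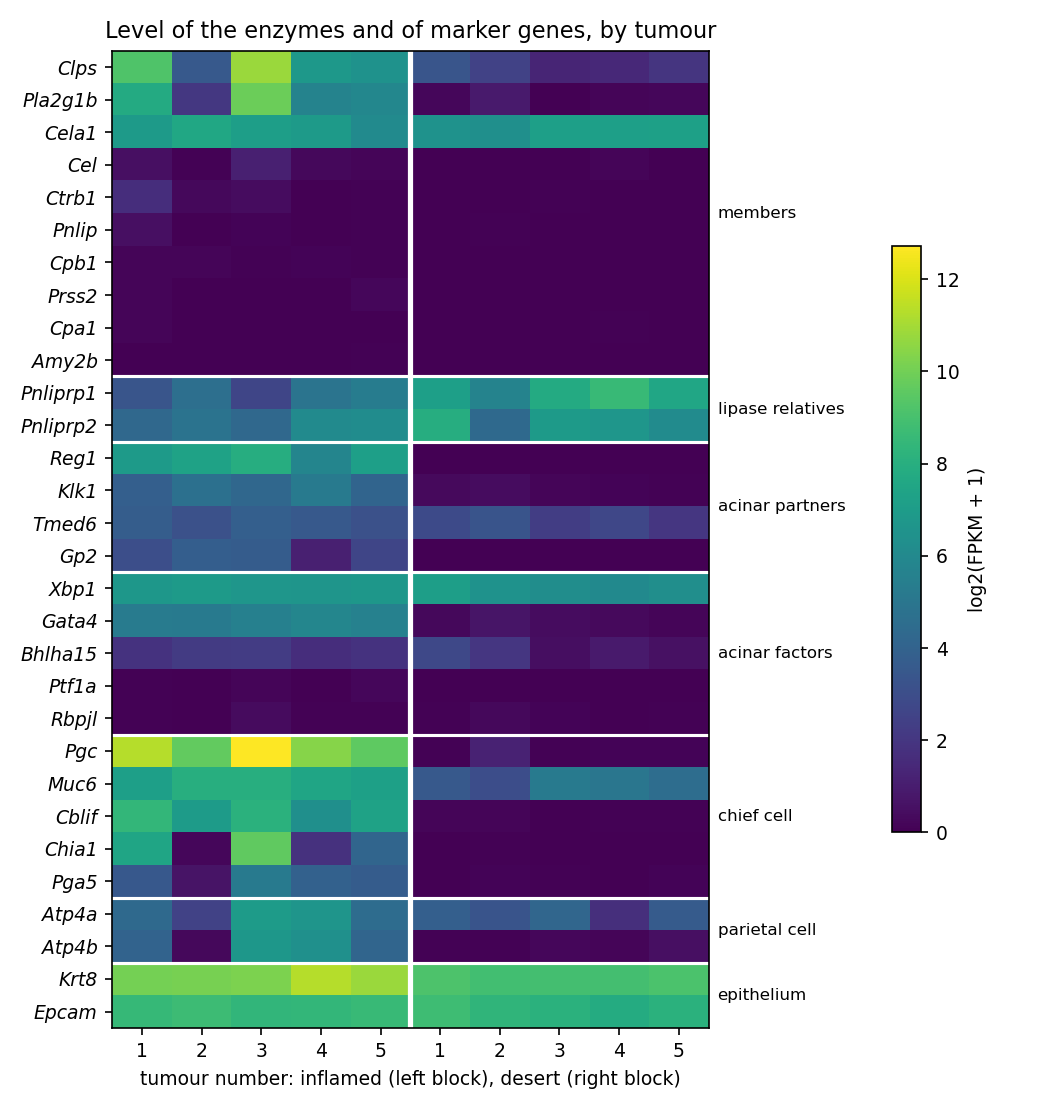
Level of the 10 enzyme genes and of genes from the lists, as log2(FPKM + 1) by colour, with 1 column per tumour (inflamed 1 to 5 on the left, desert 1 to 5 on the right). Clps, Pla2g1b and Chia1 share their brightest cells in inflamed tumours 1 and 3 and a dark cell in inflamed tumour 2, Cela1 is bright throughout, and Ptf1a and Rbpjl are dark throughout.

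Likeness of profiles was measured as the root mean square distance of log2(FPKM + 1), centred on each gene's mean, over the 10 tumours and 14170 genes with names other than predicted ones. Clps and Pla2g1b were 0.64 apart. The nearest genes outside the 10 were Chia1 (1.11), Atp4b (1.41) and the pepsinogen gene Pga5 (1.48) for Clps, and Chia1 (1.16), Atp4b (1.46) and the aldehyde dehydrogenase gene Aldh3a1 (1.56) for Pla2g1b. Cela1 lay 3.27 from Clps and 3.56 from Pla2g1b, and its nearest genes were Btf3-ps18, Flywch2 and Slc26a11, all within 0.27. The median distance over the 14170 genes was 3.20 for Clps, 3.51 for Pla2g1b and 0.58 for Cela1. A given distance to Cela1 therefore marks less likeness than the same distance to Clps or Pla2g1b. These distances are descriptions, taken over tumours of 2 models.

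Genes that switch on, block or sense these enzymes were followed as well, with relatives of the enzymes that act outside the pancreas. Enteropeptidase (Tmprss15), which starts trypsin activation in the duodenum, reached at most 0.0157 FPKM. Over all tested genes, 31% were higher and 31.2% lower, which holds as the background of the counts that follow. Of 11 genes for activation, inhibition and receptors, 6 were tested, 5 were higher in inflamed tumours and 1 did not pass. F2rl1, a receptor that trypsin cleaves, was at 32.4 ± 6.96 FPKM in inflamed against 1.08 ± 0.731 FPKM in desert tumours (limma adjusted p = 1.15e-07). Of 11 other phospholipase A2 genes, 10 were tested, 6 were higher, 3 were lower and 1 did not pass. Pla2g2a, a secreted form, was at 319 ± 130 FPKM against 76.2 ± 102 FPKM (limma adjusted p = 0.0167), whereas Pla2g2f was at 2.24 ± 1.12 FPKM against 132 ± 31.7 FPKM (limma adjusted p = 5.87e-08; SD, n = 5 each). Of 8 other lipases, 7 were tested, 1 was higher (Lipa, the lysosomal lipase), 1 was lower (Mgll, which splits monoglycerides) and 5 did not pass. Of 9 other carboxypeptidases 6 were tested, with 3 higher and 1 lower, and of 15 other serine proteases 8 were tested, with 6 higher and 2 lower.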

How the data were processed

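Whole-transcriptome RNA of 10 mouse gastric tumours, 5 inflamed and 5 desert, was sequenced in 1 library per tumour after TRIzol extraction, per the labels' protocols. That text speaks of 6 tumours; all 10 libraries in the series were used. The authors deposited FPKM values in 1 table with gene lengths in bases; the aligner, counter and annotation are not given in the sources used here, nor is strandedness, so reads of overlapping antisense genes cannot be separated. The submitters' processing notes name mm10, but 0 of the 10 genes had the GENCODE M21 (GRCm38) start and all 10 its span length, so positions are copied from the table without naming a build. The labels do not state that tumours came from separate animals, so p-values measure the spread between these samples.

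FPKM times gene length gave whole multiples of 1 step per library (100% of values above 0 within 0.01), which gave the reads. Floors allow 3 reads and cover counting error only. Replicate libraries differed beyond counting noise (chi-square per degree of freedom 19.5 to 138), so none was merged. Each gene was compared on log2(FPKM + 1) with limma 3.58.1 in R 4.3.3 (two-sided, with trend and robust settings and tumour type as the sole term), over genes with a mean of at least 0.5 FPKM, with Benjamini-Hochberg adjustment over all tested genes and a threshold of 0.05. This moderated test was checked on simulated data. A gene near 0 in 1 group can reach the mean of 0.5 FPKM through the other group alone, which largely fixes its direction. Alternatives were pseudocounts of 0.1 and 0.01, no filter, a mean of at least 5 FPKM, TPM, median-of-ratios and quantile scaling, no trend or robust moderation, a tumour-number block, limma voom on recovered reads (mean of at least 10) and each library left out. The members and lists were chosen with earlier results of these data known. Named genes were the members, up to 4 genes of highest mean per list and the 3 nearest profiles per tested member. Promoter sequences are from RefSeq. Values of some list genes are not reported here.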

Additional observations from a re-analysis of the deposited data

Results flagged for a closer look

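In groups of 5 tumours, a tumour was picked out where its gap to the next one took up over 0.71 of the group's range in FPKM. This happens by chance in about 1 of 20 groups if values are normally distributed, which these FPKM values need not be. Where 1 tumour alone is above 0, the gap is the whole range and the tumour is always picked out. Of 17 groups with any spread, 9 were picked out, most of them genes with few reads, where 1 tumour with a few reads is set against zeros. Pla2g1b was highest in inflamed tumour 3 (939 FPKM), and in desert tumours it was highest in tumour 2 (0.908 FPKM). Inflamed tumour 1 was highest for Ctrb1 (2.13 FPKM), Pnlip (0.414 FPKM) and Cpa1 (0.13 FPKM), the last with 4 reads. In desert tumours, tumour 4 was highest for Cel (0.125 FPKM) and Cpa1 (0.0601 FPKM), and tumour 3 for Ctrb1 (0.0708 FPKM, 1 read). Amy2b was above 0 in inflamed tumour 5 alone (0.0387 FPKM, 1 read).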

How the results depend on the processing

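Clps was called higher under all 20 alternatives, with differences of 4.38 to 6.19, and Pla2g1b under 19 of 20. The exception was limma voom on recovered reads (8.43, adjusted p = 0.121), which left 1 member called higher instead of 2; the cause was not tested. The ratio of group means with each library left out, an alternative chosen after seeing the data, spanned 50.6 to 189 for Clps and 302 to 2131 for Pla2g1b. With libraries left out in turn, Clps was 4.38 to 6.19, Pla2g1b 5.06 to 7.0 and Cela1 -0.10 to 0.27. Cela1, not called under any alternative, was negative after rescaling to TPM (-0.24), quantile normalization (-0.16), voom (-0.011), and without inflamed tumour 2 (-0.10), desert tumour 1 (-0.04) or desert tumour 2 (-0.08). Dnase1 was negative with TPM (-0.056) and quantile normalization (-0.049). TPM put the median of all tested genes at -0.28 and the share of calls that were higher at 35.0%, against 49.9% as deposited. Further acinar enzymes called lower were 2 instead of 1 with no filter, with TPM and without desert tumour 2 (1 to 2 with libraries left out), and those called higher were 0 instead of 2 at a mean of at least 5 FPKM, where fewer genes were tested. At that minimum 2784 of all tested genes were higher and 3070 lower, against 5197 and 5221. Tumours sharing a number did not deviate together over all tested genes (correlations -0.07 to 0.08). The labels do not say what the number stands for, and a shared factor that moves few genes would not show in these correlations. With the tumour number as a block in limma, Clps was 5.24 (adjusted p = 0.00456) and Pla2g1b 5.96 (adjusted p = 0.00343), and 2 members were called higher. Depth limits the 7 low genes, whose values rest on 0 to 44 reads per library.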

Other observations

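The nearest coding genes of Clps and Pla2g1b in the deposited table did not share their levels. Clpsl2, a colipase-like gene 5529 bases from Clps, was listed at 0 in all 10 tumours. On either side of Pla2g1b, Msi1, an RNA-binding protein of progenitor cells, was at 0.749 to 1.48 FPKM in inflamed and 2.15 to 7.24 FPKM in desert tumours (limma adjusted p = 0.00591), and Sirt4, a mitochondrial sirtuin, at 4.47 to 6.41 FPKM and 2.34 to 4.07 FPKM in the same groups (limma adjusted p = 0.0047). Cpa3, the mast cell carboxypeptidase next to Cpb1, was at 0.487 to 13.8 FPKM in inflamed and 0.762 to 1.68 FPKM in desert tumours (limma adjusted p = 0.213). These neighbours were named after their values were seen.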
